A study of Mus musculus with 4 samples.

Results

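DNA replication and mitosis draw on separate sets of genes, and 43 genes of these sets were followed here by name: 21 genes of S phase, when a cell copies its DNA, and 22 genes of G2 and mitosis, when it prepares to divide and divides. All 43 were found by symbol among the 27998 genes counted. They were read in macrophages, monocytes, dendritic cells and T or NK cells of injured mouse muscle, with replication beside mitosis in each.

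Cells with the leukocyte protein CD45 were drawn with magnetic beads out of the tibialis anterior, a shin muscle, of male C57BL/6 background mice, aged 8 to 12 weeks, after injection of cardiotoxin, a venom component that kills muscle fibres. Control mice were *Bach1* fl/fl, with both copies of *Bach1*, a heme-binding repressor of transcription, flanked by loxP sites around exon 4. KO mice were *Bach1* fl/fl and also carried Lyz2-Cre, a recombinase knocked into *Lyz2* and active in myeloid cells. T and NK cells are not myeloid, and loss of the gene in them was not measured. Muscle was taken 2 days (dpi2) or 4 days (dpi4) after injury, and 1 library was made for each of the 4 groups, so no spread between animals was measured.

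The libraries held from 4177 to 6602 barcodes and from 57010520 to 80228489 UMIs (unique RNA molecules counted), and from 3433 to 5721 cells were kept. Any pair of libraries shared from 2 to 14 barcodes. *Lyz2* followed the labels, at 9388 and 15845 CPM (UMIs per 1000000 UMIs of all genes) in the control libraries and at 17.5 and 21.6 CPM in the KO libraries. *Bach1* did not: it was at 189 CPM (control) and 187 CPM (KO) at dpi2 and at 207 and 217 CPM at dpi4. Counts per gene do not show a missing exon, so the libraries are called KO and control as labelled. Mitochondrial RNA made up 10% or more of the UMIs in 8.10% and 6.61% of the barcodes at dpi2 and in 15.4% and 19.9% at dpi4 (control, then KO), and these were left out.

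Cell types were named from marker genes, so "macrophage" here means a macrophage-like cluster, and likewise for the other classes. Macrophages numbered 1822, 1023, 2908 and 2550 in the order control dpi2, KO dpi2, control dpi4 and KO dpi4, which is the order of every set of 4 values below. Monocytes numbered 2617, 988, 48 and 68, dendritic cells 313, 237, 361 and 396, and T or NK cells 102, 36, 81 and 132. The macrophage markers summed to 13972, 17796, 39583 and 32745 CPM in macrophages and to between 345 and 12825 CPM in the other 3 classes.

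S phase begins when E2F transcription factors switch on the genes of origin licensing, nucleotide supply and DNA synthesis. The mitotic genes are held off until G2 by repressors bound at the cell cycle homology region (CHR) and are then switched on with the help of NF-Y at CCAAT boxes and of FOXM1. Macrophages of injured muscle arise mostly from blood monocytes, and such macrophages can divide in the tissue. Neutrophils are fully differentiated and do not divide, so their values give the background of each measure.

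The promoters of both sets were set side by side, because these elements mark the pair of programmes. RefSeq promoters of GRCm38.p6 (250 bases before to 50 after the gene start) were matched for 36 of the 43 members, all but *Mcm4*, *Tpx2*, *Ccna2*, *Ccne2*, *Gins2*, *Aurkb* and *Rfc2*. E2F elements were searched as TTTGGCGC, TTTCCCGC, TTTCGCGC, TTTGCCGC and TTTGGCGG, the CHR as TTTGAA, and the CCAAT box as CCAAT, on both strands. Matches of different E2F letters can overlap one another, as can CCAAT matches on opposite strands, and no E2F, CHR or CCAAT search word contains another. An E2F element was found in 7 of 17 S phase genes (41.2%), in 1 of 19 G2/M genes (5.26%) and in 3.18% of 27025 genes overall. A CHR was found in 2 of 17 S phase genes (11.8%), in 13 of 19 G2/M genes (68.4%) and in 20.2% overall. A CHR together with a CCAAT box was found in 1 S phase gene (5.88%), in 12 G2/M genes (63.2%) and in 7.97% overall. The other genes of replication and mitosis, listed further below, gave 44.7% with an E2F element and 73.8% with a CHR, respectively.

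Of each set, 3 promoters are shown as the 250 bases before the gene start, 5′ to 3′ on the gene's strand, with E2F, CHR and CCAAT letters in capitals. They are those of the S phase genes with the lowest ratios over time in control macrophages and of the G2/M genes with the lowest ratios of KO over control at dpi2, among members with 1 matched promoter. *Mcm2*, *Mcm5* and *Mcm6* encode subunits of the helicase that opens the DNA. They lie at chr6:88898781-88899030 (minus strand), chr8:75109259-75109508 (plus) and chr1:128359706-128359955 (minus).
Mcm2: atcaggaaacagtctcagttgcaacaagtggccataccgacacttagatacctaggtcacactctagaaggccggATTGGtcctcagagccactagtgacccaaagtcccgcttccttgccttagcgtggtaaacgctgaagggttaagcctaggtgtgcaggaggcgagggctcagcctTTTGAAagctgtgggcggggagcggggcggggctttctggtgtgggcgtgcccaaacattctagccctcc
Mcm5: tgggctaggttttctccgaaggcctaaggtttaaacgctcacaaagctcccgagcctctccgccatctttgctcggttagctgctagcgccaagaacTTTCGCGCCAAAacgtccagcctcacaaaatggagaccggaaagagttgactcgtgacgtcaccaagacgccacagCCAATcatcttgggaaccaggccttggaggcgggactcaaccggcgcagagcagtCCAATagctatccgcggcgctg
Mcm6: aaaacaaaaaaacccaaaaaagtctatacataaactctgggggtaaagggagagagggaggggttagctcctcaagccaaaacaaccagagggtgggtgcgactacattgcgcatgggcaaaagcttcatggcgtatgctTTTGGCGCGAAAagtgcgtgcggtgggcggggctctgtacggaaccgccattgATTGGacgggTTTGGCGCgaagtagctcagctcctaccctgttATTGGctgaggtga
*Ube2c* encodes a ubiquitin-conjugating enzyme of the anaphase-promoting complex, *Birc5* survivin of the chromosomal passenger complex, and *Cenpf* a protein of the kinetochore, the site where chromosomes hold the spindle. They lie at chr2:164769679-164769928 (plus), chr11:117848987-117849236 (plus) and chr1:189688087-189688336 (minus).
Ube2c: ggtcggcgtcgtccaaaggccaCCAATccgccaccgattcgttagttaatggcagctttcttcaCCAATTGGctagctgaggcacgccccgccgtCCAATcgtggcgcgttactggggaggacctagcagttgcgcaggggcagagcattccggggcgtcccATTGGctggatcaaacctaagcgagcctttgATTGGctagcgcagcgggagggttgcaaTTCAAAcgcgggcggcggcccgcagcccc
Birc5: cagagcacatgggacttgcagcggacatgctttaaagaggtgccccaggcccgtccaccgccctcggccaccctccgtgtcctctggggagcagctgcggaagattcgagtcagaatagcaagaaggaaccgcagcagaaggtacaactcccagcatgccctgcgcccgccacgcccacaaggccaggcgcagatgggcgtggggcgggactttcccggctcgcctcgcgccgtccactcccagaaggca
Cenpf: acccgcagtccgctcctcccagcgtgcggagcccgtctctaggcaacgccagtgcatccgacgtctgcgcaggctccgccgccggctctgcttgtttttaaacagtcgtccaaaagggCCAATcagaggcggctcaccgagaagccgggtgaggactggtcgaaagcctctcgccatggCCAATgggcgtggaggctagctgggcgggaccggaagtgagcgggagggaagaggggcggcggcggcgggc
*Mcm5* and *Mcm6* hold E2F letters, the nearest to the start at 149 and 47 bases before it. *Mcm2* holds none in this window and has a CHR at 70 bases and a CCAAT box at 175 bases before its start. *Ube2c* holds a CHR, at 29 bases before its start, and 6 CCAAT matches. Of these, 2 overlap on opposite strands in the letters CCAATTGG, at 186 and 183 bases. *Cenpf* holds 2 CCAAT boxes, at 132 and 71 bases, with a CHR outside the bases shown, and *Birc5* holds none of these letters. A match is a description of the letters and was not tested as a binding site.

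Macrophages at dpi2 held more replication than mitosis RNA, and both sums were lower in the KO library. The 21 S phase genes summed to 697, 549, 400 and 405 CPM, and the 22 G2/M genes to 392, 205, 454 and 413 CPM. Mitosis thus differed more between the dpi2 libraries than replication: the log2 ratio of KO over control was -0.35 (-0.37 to -0.32) for S phase and -0.94 (-0.98 to -0.89) for G2/M. At dpi4 the same ratios were 0.02 (-0.01 to 0.05) and -0.14 (-0.16 to -0.11). These sums depend on which cells are called macrophages: with each library clustered by itself dpi2 gave -0.60 and -1.91 and dpi4 gave -0.32 and -1.20, so that both sums were lower in KO at dpi4 as well. That clustering took cells of a cluster led by cycle genes out of the macrophages mainly in KO. There 14 of 17 went to dendritic cells at dpi2 and 26 of 29 stayed unnamed at dpi4. In control all 54 and 38 of 40 stayed with macrophages. These and all later ranges in brackets are 95% exact intervals for counting error only. There were no replicates within a group, and no test was run. The median log2 ratio over all genes of macrophages lay between -0.07 and 0.01 in every comparison. In neutrophils, the background, both sums were lower in the KO library of dpi2 as well. Their S phase sum was 193 CPM in control and 151 CPM in KO, and their G2/M sum 54.7 and 24.7 CPM, from 84 and 74 UMIs. Whether the macrophage ratios at dpi2 go beyond those of the neutrophils was not tested.

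**Figure D1:**
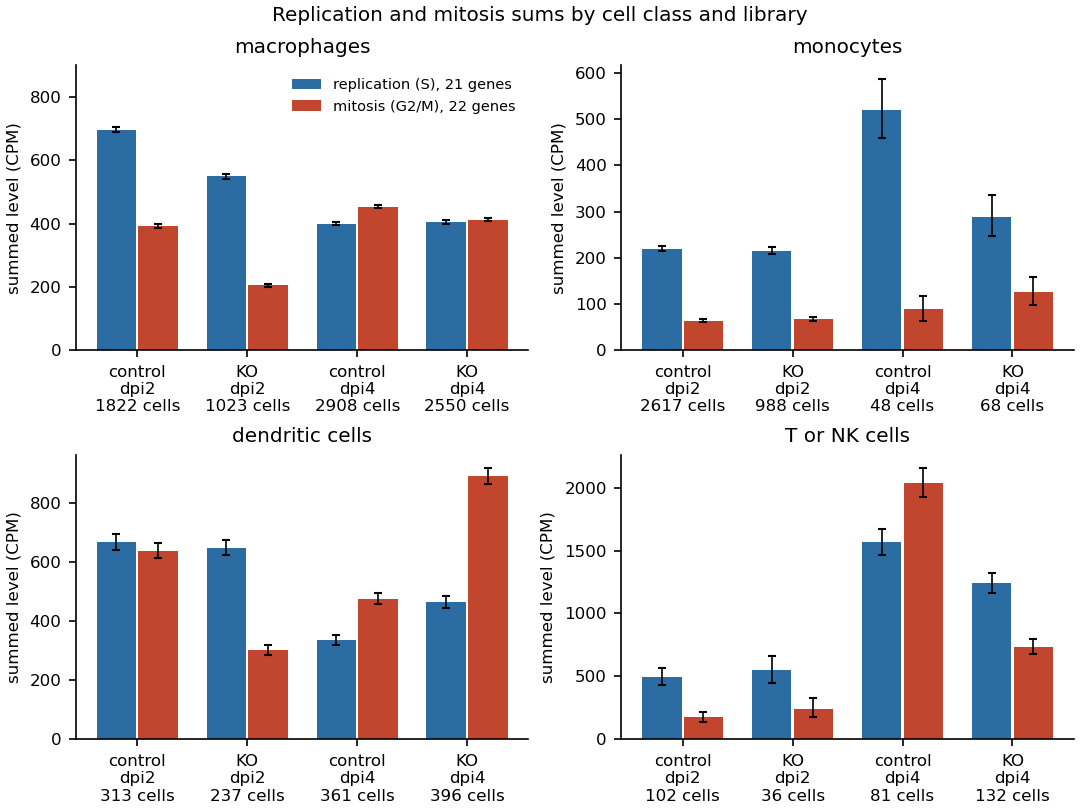
Summed levels of the 21 replication genes (blue) and the 22 mitosis genes (red), in CPM of all UMIs of the class, for each library. Bars are the sums of 1 library and error bars are 95% Poisson intervals for counting error; in macrophages mitosis is at 205 CPM in the KO library of dpi2 and between 392 and 454 CPM in the other 3.

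For single members a rule of size was used: a gene passed with a ratio of at least 2-fold between 2 libraries, an interval that did not reach 1, and 50 or more UMIs in both libraries together. Passing describes these libraries and is not a test. Among G2/M genes, 12 of 22 were lower in the KO macrophages of dpi2 by this rule, against 1 of 21 S phase genes and 2.29% of the 11068 genes measured. All 22 G2/M genes and 20 of 21 S phase genes had a ratio below 1. The median log2 ratio was -1.06 over the G2/M genes, -0.53 over the S phase genes and -0.02 over all genes. At 1.5-fold in place of 2-fold, 29 of the 43 members were lower, against 6.09% of all genes.

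The 12 G2/M genes that passed had log2 ratios from -1.54 to -1.06. *Ube2c* was at 24.3 CPM in the control and 8.38 CPM in the KO library of dpi2, and at 31.3 and 34.5 CPM at dpi4. Its log2 ratio at dpi2 was -1.54 (-1.75 to -1.33), so the KO library of dpi2 was the low one of the 4. *Birc5* was also lowest there, at 30.6, 11.4, 35.2 and 30.6 CPM, with a log2 ratio at dpi2 of -1.42 (-1.61 to -1.24). *Cdc20*, an activator of the anaphase-promoting complex, was at 4.88, 2.32, 7.14 and 5.69 CPM, a log2 ratio at dpi2 of -1.07 (-1.50 to -0.66).

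*Cenpf* was at 12.1, 4.54, 20.1 and 18.9 CPM, with a log2 ratio at dpi2 of -1.42 (-1.71 to -1.13). *Cenpe*, a kinetochore motor, had a log2 ratio of -1.06 (-1.28 to -0.84). *Plk1*, a kinase of mitotic entry and spindle assembly, was at 6.41, 2.53, 8.51 and 7.74 CPM and had a ratio of -1.34 (-1.74 to -0.96). The cyclins *Ccnb1*, *Ccnb2* and *Ccna2*, which bind CDK1 or CDK2, had log2 ratios of -1.10, -1.20 and -1.13. The spindle genes *Kif11*, *Tpx2* and *Tacc3* had -1.19, -1.15 and -1.06. In each of these genes the KO library of dpi2 was the low one of the 4. On GRCm38, *Ube2c* (ENSMUSG00000001403) lies at chr2:164769898-164778822, *Birc5* (ENSMUSG00000017716) at chr11:117849251-117855743 and *Cenpf* (ENSMUSG00000026605) at chr1:189640606-189688086. Gene positions are those of GENCODE, and the promoters shown above are set from RefSeq starts, which for the 6 genes shown lie 0 to 60 bases from the GENCODE start. For *Ube2c* the last 31 bases shown, with the CHR, lie inside the GENCODE gene.

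The mitosis genes with the most UMIs in macrophages did not reach the 2-fold limit. *Top2a*, a topoisomerase that untangles sister DNA, was at 58.8, 37.8, 47.2 and 45.3 CPM. *Mki67*, a marker of cycling cells in all phases but rest, was at 43.3, 27.9, 52.6 and 43.4 CPM. Both had a log2 ratio at dpi2 of -0.64, with intervals of -0.74 to -0.53 and -0.76 to -0.51. *Cenpa*, the histone of the centromere, was at 24.1, 15.9, 63.0 and 51.3 CPM, with -0.61 at dpi2. The 10 G2/M genes that did not pass ranged from -0.96 (*Cdk1*, the mitotic kinase) to -0.59 (*Bub1b*, of the spindle checkpoint), with -0.92 for *Bub1*, also of that checkpoint, and -0.66 for *Aurkb*, the kinase of the complex of *Birc5*.

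Among replication genes, *Tk1*, a thymidine kinase that supplies nucleotides, was the 1 member past the rule at dpi2. It was at 15.2, 7.24, 12.9 and 10.8 CPM, with a log2 ratio of -1.07 (-1.31 to -0.84), and its gene (ENSMUSG00000025574) lies at chr11:117815526-117826092 on GRCm38. The other genes of nucleotide supply were *Rrm2* and *Rrm1*, the subunits of ribonucleotide reductase, with -0.91 and -0.55, *Tyms*, thymidylate synthase, with -0.84, and *Dut*, a dUTP pyrophosphatase, with -0.70. The 6 helicase genes *Mcm2* to *Mcm7* had from -0.67 (*Mcm6*) to -0.23 (*Mcm3*, at 54.4, 46.4, 29.4 and 26.6 CPM). *Pcna*, the sliding clamp of DNA polymerases, was the S phase gene with the most UMIs, at 21.6% of the list in macrophages, and was higher in the KO library, at 132 and 150 CPM (log2 ratio 0.18). Without *Pcna* the log2 ratio of the S phase sum at dpi2 moved from -0.35 to -0.50.

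At dpi4 no member passed the rule between KO and control macrophages in either direction, against 0.923% of 11921 genes higher and 1.38% lower. Log2 ratios ran from -0.44 (*Cdc6*, a loader of the helicase) to 0.49 (*Mcm5*) over the S phase genes and from -0.42 (*Tpx2*) to 0.14 (*Ube2c*) over the G2/M genes. *Mcm5* was at 12.2 and 17.1 CPM, and the next highest log2 ratio was that of *Pcna*, with 0.24.

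**Figure D2:**
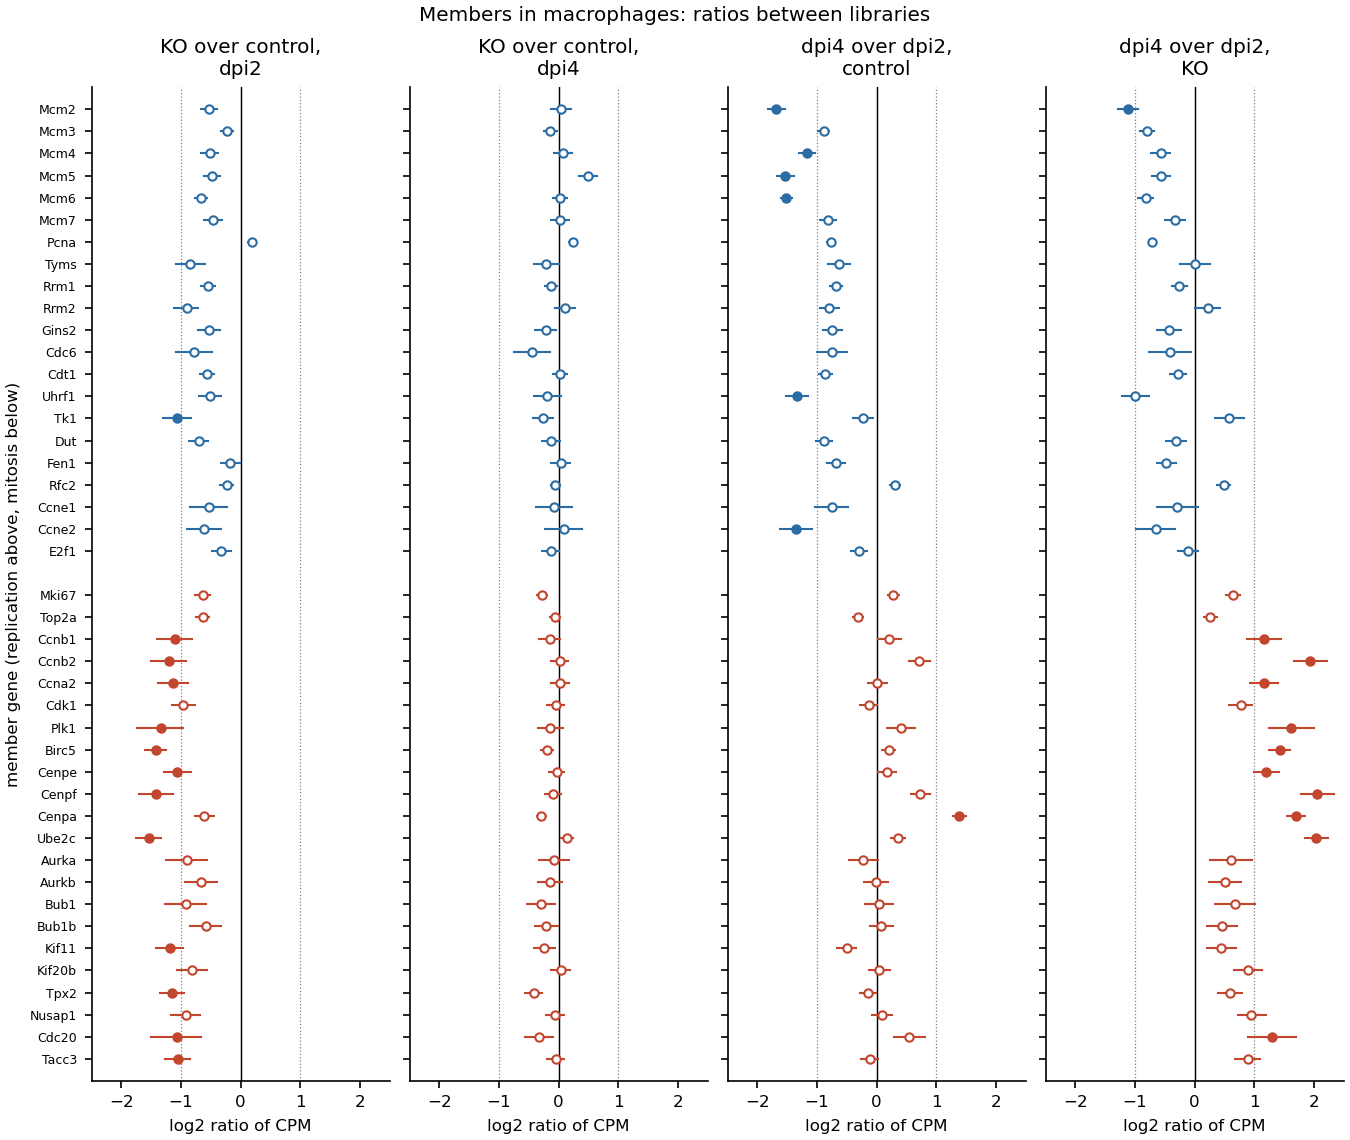
Log2 ratios of the CPM of each member between libraries in macrophages, with replication genes in blue and mitosis genes in red. Points are ratios of 1 library over another, bars are 95% counting intervals, filled points passed the size rule, dotted lines mark 2-fold; 12 of 22 mitosis genes are filled on the lower side at dpi2 and none at dpi4.

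From dpi2 to dpi4 the sums moved in opposite directions in control macrophages, with replication lower and mitosis slightly higher. The log2 ratio of dpi4 over dpi2 was -0.80 (-0.83 to -0.78) for S phase and 0.21 (0.18 to 0.24) for G2/M in control, and -0.44 (-0.47 to -0.41) and 1.01 (0.97 to 1.05) in KO. In control the G2/M sum went from 392 to 454 CPM, and *Cenpa* alone went from 24.1 to 63.0 CPM. There was 0.562, 0.373, 1.13 and 1.02 times as much G2/M as S phase RNA in the 4 libraries. Mitosis was thus below replication at dpi2 and level with or above it at dpi4 in both genotypes. For KO dpi4 this depends on the clustering. With each library clustered by itself, its mitosis sum was lower against control by more than its replication sum, as given above.

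In control macrophages, 6 of 21 S phase genes were lower at dpi4 by the rule, against 6.05% of 11711 genes. The 6 were *Mcm2*, *Mcm4*, *Mcm5*, *Mcm6*, *Uhrf1*, which recruits the maintenance DNA methyltransferase, and *Ccne2*, a cyclin of S phase entry. *Mcm2* was at 36.0, 25.0, 11.2 and 11.5 CPM, a log2 ratio over time of -1.68 (-1.83 to -1.54) in control. *Mcm6* was at 66.8, 41.9, 23.4 and 23.7 CPM and *Mcm5* at 35.2, 25.3, 12.2 and 17.1 CPM, with -1.51 and -1.53. Of the other 15 S phase genes, 14 had a ratio below 1. *Rfc2*, a subunit of the clamp loader, was the exception, at 42.8, 36.4, 52.9 and 50.9 CPM, a log2 ratio of 0.31 in control. Among the G2/M genes, 1 of 22 was higher at dpi4 by the rule, *Cenpa* with 1.38 (1.28 to 1.49), against 9.75% of all genes.

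In KO macrophages, 10 of 22 G2/M genes were higher at dpi4, against 9.06% of 11406 genes, and all 22 had a ratio above 1. *Cenpf* had a log2 ratio of 2.06 (1.79 to 2.33), *Ube2c* 2.04 (1.85 to 2.24) and *Ccnb2* 1.94 (1.67 to 2.21). The other 7 were *Cenpa*, *Plk1*, *Birc5*, *Cdc20*, *Cenpe*, *Ccnb1* and *Ccna2*, from 1.69 down to 1.16. *Mcm2* alone among the S phase genes was lower by the rule in KO, with -1.12 (-1.29 to -0.96), against 5.07% of all genes. The comparison over time in KO and the comparison of genotypes at dpi2 share the KO library of dpi2, so the same low values enter both. At 1.5-fold, 3 members were higher and 18 lower over time in control, against 17.4% and 17.9% of all genes, and 18 were higher and 6 lower in KO, against 17% and 15.4%.

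Genes of the same processes that are not among the 43 were read in macrophages from lists of 51 other replication genes, 55 other mitosis genes and 30 regulators. At dpi2, 22 of 54 other mitosis genes with enough UMIs were lower in KO, against 2.29% of all genes, with the lowest log2 ratios in *Psrc1* (-1.75), *Fam64a* (-1.56) and *Pbk* (-1.54), and all 54 had a ratio below 1. Of the 51 other replication genes, 2 were lower, *Recql4* (-1.25) and *Mcm10* (-1.12), a share near that of all genes. Of 28 regulators, 3 were lower: *Foxm1*, the activator of the mitotic genes, with -1.46, *Wee1*, a kinase that holds CDK1 inactive, with -1.26, and *Ccnd1*, the cyclin D1 of G1, with -1.24. *Ccnd1* was at 237, 100.5, 30.4 and 34.6 CPM, so it was lower at dpi4 in both genotypes by the rule. At dpi4, none of the other replication or mitosis genes passed between genotypes. Of 28 regulators, 1 was higher in KO, *Myc* (1.17), against 0.923% of all genes, and 1 lower, *Cdkn1c*, an inhibitor of cyclin-dependent kinases (-1.21), against 1.38%. Over time, 5 of 28 regulators were lower and 2 higher in control, against 6.05% and 9.75% of all genes, and 2 were lower and 3 higher in KO, against 5.07% and 9.06%.

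Over time in control, 12 of 51 other replication genes were lower, against 6.05% of all genes, with *Cdc7*, a kinase that fires origins, the lowest at -1.90. Of the other mitosis genes 1 of 55, *Gtse1*, was lower, a share below that of all genes. In KO, 19 of 55 other mitosis genes were higher, against 9.06% of all genes, with the highest ratios in *Troap* (2.96), *Fam64a* (1.69) and *Hmmr* (1.53). Of the other replication genes 3 of 51, *Orc1*, *Pole2* and *Cdc7*, were lower, a share near the 5.07% of all genes.

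The UMIs of the mitosis genes came from few cells. In macrophages 50% of the G2/M UMIs were in 30, 11, 40 and 34 cells, and 50% of the S phase UMIs in 136, 109, 241 and 271 cells. The 1 cell with the most G2/M UMIs in the KO library of dpi2 held 9.36% of them. Without the top cell of each library the log2 ratio of the G2/M sum at dpi2 was -1.03 in place of -0.94.

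Shares of cells were therefore measured with every cell thinned to 2000 UMIs. A cell counted as S high or G2/M high at 3 or more UMIs of the list. S high macrophages were 13.5%, 8.27%, 4.48% and 4.82%, and G2/M high macrophages 4.49%, 2.46%, 4.31% and 4.17%. Without thinning the G2/M shares were 20.9%, 23.1%, 34.1% and 27.5%, and the median UMIs per macrophage were 18669, 26712, 16243.5 and 15325.5. At dpi2 the difference of KO minus control was -5.27 points (-7.59 to -2.84) for S high and -2.03 points (-3.40 to -0.57) for G2/M high cells. At dpi4 both intervals held 0, with 0.33 points (-0.82 to 1.5) and -0.14 points (-1.24 to 0.98). For S high cells this depends on the setting, since the difference at dpi4 was 3.05 points (1.20 to 4.92) after thinning to 4000 UMIs.

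From dpi2 to dpi4 the macrophages that were S high without being G2/M high went from 10.4% to 2.87% in control and from 6.50% to 3.17% in KO. Those that were G2/M high without being S high went from 1.33% to 2.70% and from 0.69% to 2.53%. Cells high for both were 3.16%, 1.77%, 1.61% and 1.65%. All G2/M high macrophages differed over time by -0.18 points (-1.46 to 1.04) in control and by 1.71 points (0.34 to 2.93) in KO. In neutrophils, which give the background, S high cells were 1.51%, 0.91%, 5.04% and 0 of 32 cells, and G2/M high cells 0.22%, 0 of 772, 2.52% and 0 of 32. Counting a 0 as at most 3 cells, the shares could be up to 0.389% of 772 and 9.38% of 32 cells. The neutrophil values of dpi4 come from 119 and 32 cells, at a median depth of 2822 and 2910 UMIs. The S high share of control macrophages at dpi4 (4.48%) was thus not above that of the neutrophils of the same library (5.04%).

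**Figure D3:**
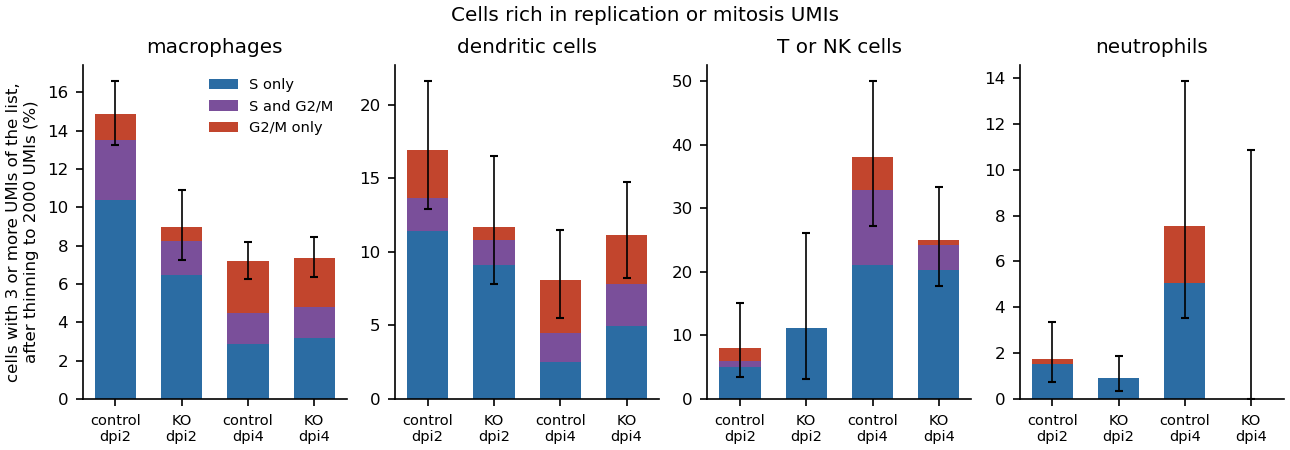
Share of cells with 3 or more UMIs of the replication list only (blue), of both lists (purple) or of the mitosis list only (red), after thinning each cell to 2000 UMIs; error bars are 95% exact binomial intervals of the total. The vertical axes differ between the panels; the macrophage total is 14.9% in control dpi2 and between 7.18% and 8.96% in the other 3 libraries.

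Cycling macrophages were then picked by genes outside the 43, so that the members' own values did not choose the cells. Of the other replication and mitosis genes, a minimum of 3 UMIs after thinning was met by 29.3% of macrophages but also by 58.3% of neutrophils, so it does not mark cycling cells. A minimum of 10 UMIs, chosen after seeing this, was met by 302 of 8165 macrophages, by 1 of 3681 monocytes and by 39 of 1387 neutrophils (2.81%). By library the neutrophil share was 3.23%, 1.94%, 5.04% and 9.38%, so the macrophage shares of dpi4 given next were not above this background. Macrophages past the minimum are called cycling below, but the share alone does not show that they divide. In the neutrophils past the minimum the G2/M sum was 53.0 CPM, against 42.6 CPM in the other neutrophils, from 3.03% of their G2/M UMIs. By library it was 26.3, 20.2, 227 and 0 CPM, from 15, 15, 6 and 3 cells. The other neutrophils had 50.8, 24.8, 153 and 80.0 CPM. The pooled members were thus not raised in neutrophils as in macrophages, but few UMIs lie behind this.

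Such macrophages were 5.88% (4.84% to 7.07%) of the control and 3.25% (2.25% to 4.53%) of the KO library at dpi2, and 3.12% (2.51% to 3.82%) and 2.97% (2.34% to 3.71%) at dpi4. They held 78.3%, 72.5%, 65.1% and 65.9% of the G2/M UMIs of macrophages and 37.3%, 27.7%, 31.8% and 26.7% of the S phase UMIs, from 9.30%, 4.98%, 5.76% and 5.28% of all UMIs. Their median depth was 32050 UMIs over the libraries, against 17305 UMIs in the other macrophages.

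All 43 members were at a higher CPM in these cells than in the other macrophages, but to very different extents. That they were higher was set in part by picking the cells with genes of the same phases. The ratio ran from 6.67 (*Cenpa*) to 170 (*Nusap1*, of the spindle) over the G2/M genes with a median of 40.0, and from 2.24 (*Rfc2*) to 95.5 (*Rrm2*) over the S phase genes with a median of 8.58. *Top2a* was at 656 CPM in the cycling cells and 6.92 CPM in the rest, and *Pcna* at 309 and 92.8 CPM. The S phase genes with the lowest ratios after *Rfc2* were *Cdt1* (2.62), *Pcna* (3.32) and *E2f1* (3.49). Members such as *Rfc2* and *Pcna* were thus well above 0 in macrophages that showed few other cycle genes. In neutrophils, the background, *Pcna* was at 106, 90.2, 151 and 151 CPM, so its level in the other macrophages was not shown to lie above background. *Rfc2* was at 43.8 CPM in the other macrophages. In neutrophils it was at 18.2 and 14.7 CPM at dpi2 and at 43.04 and 40.3 CPM at dpi4, the latter from 16 and 4 UMIs.

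Within the cycling macrophages the log2 ratio of KO over control at dpi2 was 0.12 (0.07 to 0.18) for S phase and -0.15 (-0.20 to -0.09) for G2/M. In the other macrophages it was -0.21 (-0.24 to -0.17) and -0.66 (-0.75 to -0.58). The cycling cells were picked by genes that share the members' phases, so the level of the members within them is set in part by the choice. The G2/M sum of the cycling cells was 3297, 2981, 5119 and 5147 CPM, a log2 ratio of dpi4 over dpi2 of 0.63 in control and 0.79 in KO. Their S phase sum was 2798, 3049, 2208 and 2049 CPM, with -0.34 and -0.57. In the other macrophages the G2/M sum was 93.8, 59.2, 168 and 149 CPM and the S phase sum 482, 418, 289 and 313 CPM. In neutrophils, the background, the G2/M sum was 54.7, 24.7, 151 and 70.6 CPM and the S phase sum 193, 151, 336 and 272 CPM, with 7 G2/M UMIs in KO dpi4. The G2/M sum of the neutrophils was thus also higher at dpi4, and that of the other macrophages was not shown to increase beyond it. At dpi2 the G2/M sum was lower in the KO library in the neutrophils too, as in the other macrophages.

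**Figure D4:**
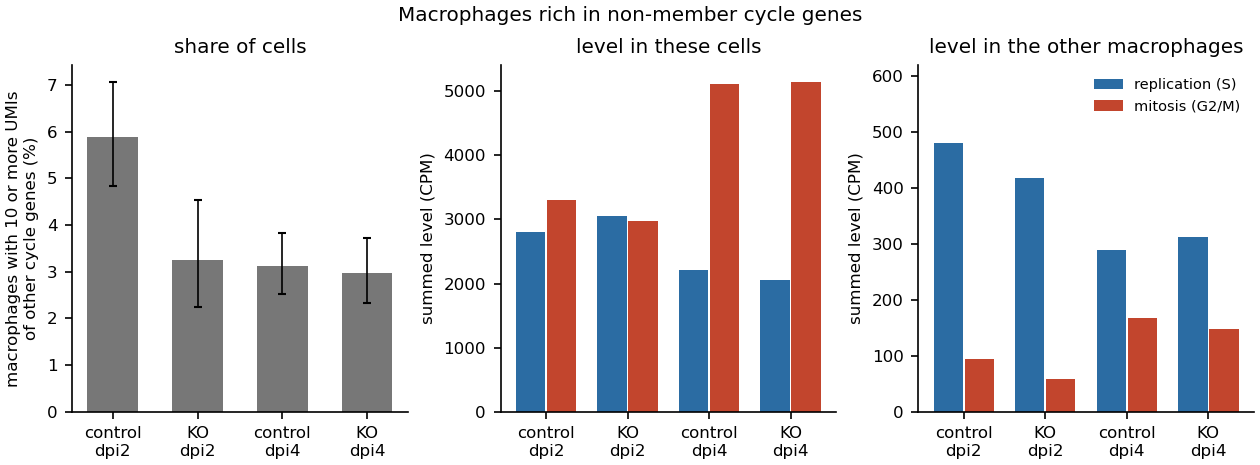
Macrophages with 10 or more UMIs (after thinning) of replication and mitosis genes outside the 43: their share with 95% exact binomial intervals (left), the summed CPM of the members in them (middle) and in the other macrophages (right), per library. In the middle panel mitosis is at 3297 and 2981 CPM at dpi2 and at 5119 and 5147 CPM at dpi4.

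Identity genes were compared between the cycling cells and the other macrophages within each library. Of those reported here, *Ly6c2*, of monocytes, and *Igf1*, a growth factor, were lower in the cycling cells of all 4 libraries, and none was higher in all 4. *Ly6c2* had log2 ratios of -1.27, -1.67, -2.75 and -1.87, but *Ccr2*, also of monocytes, had 0.08, 1.03, -0.20 and 0.51. *Lyve1*, a marker of resident macrophages, was higher in 3 of them, with 1.61, 2.48 and 2.98, and held 3 UMIs in the cycling cells of KO dpi4. *H2-Ab1*, an MHC class II chain, was higher at dpi2, with 3.05 and 4.31, but not at dpi4, with -1.16 and -0.09. The 11 dendritic cell markers summed to 103, 223, 65.7 and 92.1 CPM in the cycling cells and to 40.3, 60.2, 45.9 and 50.9 CPM in the other macrophages, so they were higher in all 4 libraries, with 4, 4, 2 and 3 of the 11 at 0 in the cycling cells. The 10 macrophage markers were lower in the cycling cells of all 4, at 10983, 8665, 19286 and 18777 CPM against 14280, 18274, 40834 and 33528 CPM. In KO dpi2 the 12 T or NK cell markers were at 69.6 against 4.30 CPM and the 8 neutrophil markers at 795 against 258 CPM. Their part in these results was not tested. *Hmox1*, which degrades heme, had -0.51, -1.03, 1.23 and -0.24, so its direction differed between libraries. So did those of *Mrc1*, the mannose receptor, with 1.19, 0.21, 0.13 and -0.59, and of *Spic*, a transcription factor of red pulp macrophages, with -2.90, -1.12, 0.31 and -0.73, the first from 1 UMI in the cycling cells.

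The macrophages of the 4 libraries fell into different clusters. The cluster led by *Pdpn*, *Spp1* and *Cd36* held 61.0% of the control and 15.5% of the KO macrophages at dpi2. At dpi4 the cluster led by *Apoe* and *Cd83* held 41.4% and 15.96%, and the one led by *Slc40a1*, *Vcam1* and *Spic* 7.63% and 36.3%. Within clusters, the G2/M sum at dpi2 was lower in KO in 4 of 6 clusters, with log2 ratios from -1.40 in the *Pdpn* cluster to 0.40 in one led by *Mmp12*. Over time its interval lay above 0 in 6 of 8 clusters in control and in 8 of 8 in KO. The interval of the S phase sum over time lay below 0 in 3, above 0 in 3 and on both sides in 2 of 8 clusters in control, and below 0 in 4, above 0 in 3 and on both sides in 2 of 9 in KO. Of these clusters, 5 of 8 in control and 7 of 9 in KO had fewer than 20 cells in 1 of the libraries.

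A cluster led by *Hist1h1b*, *Hist1h2ap* and *Top2a* held 54, 17, 40 and 29 macrophages, or 2.96%, 1.66%, 1.38% and 1.14%. It gave 57.5%, 53.2%, 31.0% and 28.1% of the G2/M UMIs of macrophages, at 4331, 3966, 4699 and 4933 CPM. Without it the log2 ratio of the G2/M sum at dpi2 was -0.84, and that over time was 0.88 in control and 1.63 in KO. Clustering the libraries one by one gave these cells other names: all 54 and 38 of 40 stayed with macrophages in the control libraries, but 14 of 17 went to dendritic cells in KO dpi2 and 26 of 29 stayed unnamed in KO dpi4.

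Monocytes held little of either programme. Their S phase sum was 219, 216, 520 and 288 CPM and their G2/M sum 64.0, 67.1, 88.1 and 125 CPM. Of the G2/M UMIs, 55.2% were from *Cenpa* alone, at 34.6 and 40.0 CPM at dpi2, and *Pcna* gave 37.8% of the S phase UMIs, at 76.4 and 95.7 CPM at dpi2. *Rfc2* was at 34.5 and 26.1 CPM there, *Cdt1* at 24.8 and 16.05 CPM and *Mki67* at 5.50 and 9.37 CPM. S high monocytes were 1.08% and 1.53% at dpi2, and the neutrophil shares that give the background were 1.51% and 0.91%. G2/M high cells were 1 of 2585 and 2 of 981.

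Between the monocytes of dpi2 the log2 ratio of KO over control was -0.02 (-0.09 to 0.04) for S phase and 0.07 (-0.05 to 0.18) for G2/M. Of 26 members with enough UMIs, 4 were lower in KO, against 2.67% of 10031 genes. Of these, *Aurkb*, with 42 UMIs in control and 8 in KO, and *Cenpe*, with 51 and 5, reached the minimum mainly through the control library. The number of genes passing thus describes those past that minimum and not the list. *Mcm6* was at 10.4 and 4.76 CPM, a log2 ratio of -1.13 (-1.53 to -0.74), *Tpx2* at 3.02 and 0.994 CPM (-1.60), *Aurkb* at 1.51 and 0.568 CPM (-1.41), and *Cenpe* at 1.83 and 0.355 CPM (-2.37). At dpi4 only 48 and 68 monocytes were found, and 1 cell of the control held 140 of its 260 S phase UMIs. The log2 ratio of the S phase sum there was -0.85 with that cell and 0.10 without the top cell of each library, so it rests on a single cell. Over time in control, 11 of 16 S phase genes with enough UMIs (*Mcm2* to *Mcm7*, *Tyms*, *Rrm1*, *Dut*, *Fen1* and *E2f1*, from 1.24 to 3.24) and 1 of 8 G2/M genes (*Top2a*, 2.14) were higher, against 5.13% of 9592 genes, with the same cell among the 48. In KO, 0 of 11 S phase genes and 0 of 2 G2/M genes were higher, against 5.59% of 8711 genes, and the median log2 ratio of the 11 was -0.25.

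Dendritic cells, which present antigen and renew in part by division in tissue, differed in mitosis between the libraries of either time, in a direction that at dpi2 depended on the clustering. The S phase sum was 667, 647, 335 and 465 CPM and the G2/M sum 637, 302, 476 and 889 CPM. Mitosis was thus lower in the KO library at dpi2 and higher at dpi4, with log2 ratios of -1.08 (-1.18 to -0.98) and 0.90 (0.83 to 0.98). With each library clustered by itself the ratio was 0.43 at dpi2 and 0.86 at dpi4, so the lower value at dpi2 was then lost. The S phase ratio at dpi2 was -0.04 (-0.12 to 0.04), or 0.60 under that clustering. Its value of 0.47 (0.37 to 0.56) at dpi4 was then 0.48. The difference between the time points was not tested.

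At dpi2, 19 of the 22 G2/M genes reached 50 UMIs in the dendritic cells and 13 of these were lower in KO, against 0 of 20 S phase genes and 1.69% of 8170 genes. A gene reaches 50 UMIs more easily where 1 of the libraries is high, so counts in the smaller classes describe the genes past that minimum and not the list. *Ube2c* was at 68.0, 14.1, 36.1 and 89.2 CPM, a log2 ratio at dpi2 of -2.27 (-2.70 to -1.86). *Cenpf* was at 37.5, 9.34, 26.9 and 61.1 CPM (-2.01) and *Top2a* at 87.4, 40.0, 57.5 and 131 CPM (-1.13). The others were *Kif11*, *Ccnb2*, *Nusap1*, *Ccnb1*, *Cenpe*, *Ccna2*, *Cdk1*, *Tpx2*, *Birc5* and *Bub1b*, from -1.72 to -1.06. Of the other genes with the most UMIs, *Mki67* was at 65.2, 35.7, 63.7 and 100.3 CPM and *Cenpa* at 82.0, 70.2, 76.7 and 96.9 CPM, and *Pcna* and *Rfc2* at 66.0, 86.0, 69.2 and 80.0 CPM and 50.4, 48.9, 33.3 and 38.2 CPM. In *Ube2c*, *Cenpf* and *Top2a* the KO library was the lowest of the 4 at dpi2 and the highest at dpi4.

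At dpi4, 9 of 22 G2/M genes and 1 of 18 S phase genes were higher in KO, against 0.764% of 8639 genes. *Cdk1* was at 8.33 and 26.6 CPM, a log2 ratio of 1.67 (1.14 to 2.23), *Nusap1* had 1.46, *Ube2c* 1.30, *Ccna2* 1.26, *Top2a* 1.19 and *Cenpf* 1.18. *Cenpe*, *Plk1* and *Ccnb1* had 1.12, 1.06 and 1.0. The S phase gene was *Tyms*, at 7.69 and 17.1 CPM, with 1.16 (0.57 to 1.77). Of the genes of mitosis outside the 43, 11 of 27 with enough UMIs were lower in KO at dpi2, against 1.69% of all genes, and 13 of 43 higher at dpi4, and of those of replication 0 of 44 and 1 of 32.

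Over time, replication genes of dendritic cells were lower at dpi4 in control. By the rule 12 of 18 S phase genes and 2 of 20 G2/M genes (*Cdk1* and *Nusap1*) were lower, against 3.32% of 8369 genes. *Mcm5* was at 43.2, 41.4, 10.9 and 21.7 CPM, a log2 ratio of -1.99 (-2.47 to -1.53) in control. *Uhrf1* and *Mcm3* had -1.73 and -1.64, and the others, *Mcm2*, *Mcm4*, *Mcm6*, *Mcm7*, *Tyms*, *Gins2*, *Dut*, *Fen1* and *E2f1*, from -1.48 to -1.04. In KO, 3 of 19 S phase genes were lower, *Mcm2* (-1.47), *Gins2*, a part of the active helicase (-1.23), and *Cdt1*, a licensing factor (-1.09), against 2.69% of 8499 genes. There, 18 of 21 G2/M genes were higher, against 3.98%. The KO library of dpi2 enters here and in the comparison of genotypes at dpi2, and with each library clustered by itself the log2 ratio of the G2/M sum over time in KO was 0.31 in place of 1.56. Among them were *Cenpf* (2.71), *Ube2c* (2.66) and *Cenpe* (2.53), and *Plk1* went from 5 to 50 UMIs. The other 14 were *Mki67*, *Top2a*, *Ccnb1*, *Ccnb2*, *Ccna2*, *Cdk1*, *Birc5*, *Bub1*, *Bub1b*, *Kif11*, *Kif20b*, *Tpx2*, *Nusap1* and *Cdc20*, from 1.06 to 2.21.

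These dendritic cell values rest on few cells. In each library 50% of the G2/M UMIs were in 6, 6, 8 and 9 cells. S high dendritic cells after thinning were 13.7%, 10.8%, 4.48% and 7.79%. G2/M high cells were 17, 6, 20 and 24, or 5.54%, 2.60%, 5.60% and 6.23%. The differences of KO minus control were -2.94 points (-6.52 to 0.80) at dpi2 and 0.63 points (-3.02 to 4.24) at dpi4, so the shares of cells did not show a difference beyond counting error. Dendritic cells with 10 or more UMIs of cycle genes outside the 43 were 8.14%, 6.49%, 4.48% and 7.79%. Within them the log2 ratio of the G2/M sum was -1.10 (-1.22 to -0.99) at dpi2, from 25 and 15 cells, and 0.04 (-0.05 to 0.13) at dpi4, from 16 and 30 cells. Markers of macrophages summed to 701, 1188, 4800 and 2506 CPM in the dendritic cells, with none of the 10 at 0, and their part in the result was not tested. Clustering the libraries one by one brought 14 cycling cells of KO dpi2 from the macrophages into the dendritic cells.

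The dendritic cells fell into 3 clusters that differed in mitosis. The cluster led by *Xcr1* and *Clec9a*, markers of cross-presenting dendritic cells, held 33, 19, 49 and 56 cells and had G2/M sums of 1972, 825, 1242 and 2601 CPM. The cluster led by *Cd209a*, with 258, 194, 268 and 282 cells, had 474, 266, 344 and 530 CPM. The cluster led by *Ccr7*, a marker of migratory cells, with 22, 24, 44 and 58 cells, had 32.7, 135, 252 and 222 CPM. The KO library was lower at dpi2 and higher at dpi4 in the *Xcr1* and *Cd209a* clusters. In the *Ccr7* cluster it was higher at dpi2, with 6 and 57 G2/M UMIs behind the values, and the log2 ratio at dpi4 was -0.18 (-0.57 to 0.20), within counting error. Without the *Xcr1* cluster the log2 ratios of the G2/M sum were -0.84 and 0.56.

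**Figure D5:**
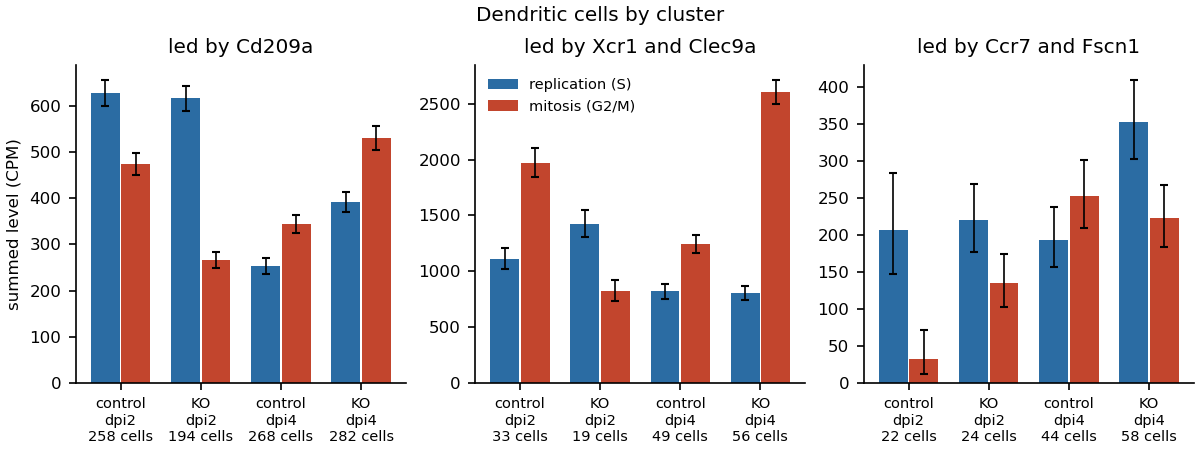
Summed CPM of the replication (blue) and mitosis (red) genes in the 3 clusters of dendritic cells, by library, with the number of cells under each bar pair and 95% Poisson intervals for counting error. The vertical axes differ; mitosis is at 825 CPM in KO dpi2 and 2601 CPM in KO dpi4 in the Xcr1 cluster.

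T or NK cells, as a class, had higher sums at dpi4 than at dpi2 in both genotypes, from few cells. The S phase sum was 497, 548, 1568 and 1239 CPM and the G2/M sum 176, 244, 2036 and 734 CPM. The class held 2 clusters. In the one led by *Gzma* and *Nkg7*, genes of cytotoxic cells, with 73, 22, 39 and 80 cells, the G2/M sum was 133, 225, 2302 and 937 CPM. In the one led by *Cd3g* and *Cd3d*, chains of the T cell receptor complex, with 29, 14, 42 and 52 cells, it was 272, 269.9, 1737 and 271 CPM, so it was not higher at dpi4 in KO. The S phase sum there was 537, 283, 1455 and 918 CPM. At dpi2 the ratios of KO over control could not be told from 1, with log2 values of 0.14 (-0.21 to 0.48) for S phase and 0.47 (-0.08 to 1.02) for G2/M. With no doublets removed they were 0.92 and 1.71. At dpi4 they were -0.34 (-0.47 to -0.21) and -1.47 (-1.62 to -1.33), and -0.20 and -0.89 with no doublets removed.

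At dpi4, 14 of the 22 G2/M genes reached 50 UMIs in the T or NK cells and these 14 were lower in KO, against 0 of 15 S phase genes and 2.75% of 3897 genes. The other 8 G2/M genes held under 50 UMIs and were not read. A gene reached 50 UMIs more easily where the control library was high, so the 14 describe the genes past that minimum and not the list. *Mki67* was at 4.28, 10.8, 237 and 109 CPM, a log2 ratio at dpi4 of -1.12 (-1.52 to -0.72). *Top2a* was at 21.4, 38.0, 383 and 155 CPM (-1.30) and *Ube2c* at 6.43, 0, 129 and 31.3 CPM (-2.05). *Cenpa* was at 126, 125, 182 and 70.0 CPM (-1.38). The others were *Ccnb2*, *Ccna2*, *Cdk1*, *Birc5*, *Cenpe*, *Cenpf*, *Kif11*, *Kif20b*, *Tpx2* and *Nusap1*, from -3.38 (*Ccnb2*, 46 and 6 UMIs) to -1.11 (*Birc5*). The 6 helicase genes had from -0.53 (*Mcm5*, -1.12 to 0.06) to 0.19 (*Mcm4*, -0.38 to 0.78), with *Mcm2* and *Mcm3* also below 0 and *Mcm6* and *Mcm7* above it, and every interval held 0. Of the genes outside the 43, 7 of 14 of mitosis and 4 of 19 of replication were lower. *Dut*, a nucleotide pyrophosphatase with the most S phase UMIs of this class, was at 267 and 178 CPM (-0.59), *Pcna* at 153 and 120.0 CPM (-0.35) and *Mcm6* at 133 and 138 CPM (0.05).

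Over time, 9 of 10 S phase and 8 of 9 G2/M genes were higher at dpi4 in control, against 3.6% of 3168 genes, and 7 of 10 and 2 of 3 in KO, against 4.02% of 2907 genes. In control these were *Mcm2* to *Mcm7*, *Pcna*, *Rrm1* and *Dut*, from 1.05 to 2.59, and *Mki67*, *Top2a*, *Ube2c*, *Birc5*, *Cenpf*, *Kif11*, *Tpx2* and *Nusap1*, of which the last 5 held 0 UMIs at dpi2. In KO they were *Mcm3*, *Mcm5*, *Mcm6*, *Mcm7*, *Rrm1* and *Dut*, from 1.16 to 2.26, *Mcm4*, with 1 and 67 UMIs, and *Mki67* and *Top2a*. Of *Birc5* there were 0, 0, 73 and 46 UMIs, and of *Mki67* 2, 2, 139 and 87 UMIs. Such genes reached 50 UMIs through dpi4, so the numbers of genes passing describe those past that minimum and not the list. *Cenpa*, with 59 and 107 UMIs over time in control and 23 and 56 in KO, did not pass. The G2/M UMIs of dpi4 were held to 50% by 4 cells in control and 3 in KO. S high cells after thinning were 6 of 100, 4 of 36, 25 of 76 (32.9%) and 31 of 128 (24.2%). G2/M high cells were 3 of 100, 0 of 36, 13 of 76 (17.1%) and 6 of 128 (4.69%), a difference at dpi4 of -12.4 points (-23.2 to -3.13). Macrophage markers summed to 345, 390, 4452 and 1171 CPM in these cells, with 1 and 2 of the 10 at 0 at dpi2. They too were higher in the control library of dpi4, and their part in the result was not tested.

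Across the 16 sums of class and library, the S phase and G2/M sums had a Pearson r of 0.74, a description, since the 16 points come from 4 libraries and share their depth. Among 11246 genes outside the members, the 5 whose log2(CPM + 1) was most like that of the S phase sum over these points were *Mms22l* (0.95), *Lig1* (0.95), *Wdhd1* (0.94), *Cdc7* (0.92) and *Atad2* (0.92). For the G2/M sum they were *Stmn1* (0.97), *Kif23* (0.93), *Kif14* (0.93), *Ska1* (0.93) and *Atp5g2* (0.92).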

How the data were processed

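The deposited counts of UMIs per gene and cell were used as the authors made them with Cell Ranger 6.1.2 on mm10 (GRCm38), 1 filtered matrix per library, without normalisation. The labels name a 3′ v2 kit and the methods a v3.1 kit. Barcodes with at least 500 genes and under 10% mitochondrial UMIs were kept, and the highest Scrublet scores were removed as doublets at 0.8% per 1000 barcodes (100 to 289 per library), which left 17011 cells. Values were scaled to 10000 UMIs per cell and logged, and 2000 variable genes without 179 cycle genes gave 30 principal components, 15 neighbours and 27 Leiden clusters at resolution 1 (scanpy 1.11.5, leidenalg 0.10.2, scikit-learn 1.9.0, Python 3.11.15). Clusters were named from 79 matched markers of 83. The study instead used miQC, scDblFinder, Harmony, SingleR and a Wilcoxon test over cells, so cell classes may differ from its own.

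UMIs of each class and library were summed and divided by all UMIs of the class. With 1 library per group, no test was run. Levels have 95% exact Poisson intervals, ratios exact conditional binomial ones, shares Clopper-Pearson ones and differences of shares Newcombe ones built from exact limits. PCR, sampling of animals and cell calling are not covered by these. Thinning to 2000 UMIs was drawn once, and cells under 2000 UMIs were left out (7 to 58 macrophages, 3 to 167 neutrophils per library). UMIs of a 3′ assay count molecules by their end and were not divided by gene length. Named were members past the size rule, where many passed with the range of their ratios, and the 3 of each list with the most UMIs in a class; of the other lists, the 3 highest and 3 lowest past the rule in macrophages; and the 5 genes most like each sum, among those with at least 200 UMIs. The members and lists were chosen with earlier results of these data known. The code was tested on simulated counts. Promoters were RefSeq's. Some identity genes and clusters are not reported here.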

Additional observations from a re-analysis of the deposited data

Results flagged for a closer look

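In dendritic cells the G2/M sum of the KO library lay below that of the control library at dpi2, with a log2 ratio of -1.08, and above it at dpi4, with 0.90. It stands here because the ratios point in opposite directions at the 2 time points. Each group held 1 library, so the difference between the time points was not tested. With each library clustered by itself both ratios were above 0, at 0.43 and 0.86. Without the cluster led by *Xcr1* they were -0.84 and 0.56.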

How the results depend on the processing

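No paired analysis was run, since each group held 1 library and the groups shared no more than 1 replicate number. A fit of genotype and day as additive terms over the 4 libraries was not run. No replicate was left out because none would remain in its group. Of the values of the main comparisons under other settings, 152 stayed within the counting interval of the reported value, 109 moved further and 3 changed direction where that interval left out 0. Another 16 of the 152 and 109 changed sign where it held 0, all between KO and control. Values below are log2 ratios of a list's sum, S phase before G2/M, as KO over control at dpi2 and at dpi4 and dpi4 over dpi2 in control and in KO.

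With each library clustered by itself, macrophages gave -0.60 and -1.91 at dpi2, -0.32 and -1.20 at dpi4, -0.84 and 0.15 over time in control and -0.56 and 0.86 in KO. Dendritic cells gave 0.60 and 0.43 at dpi2, with G2/M changing direction, -0.83 and -0.12 in control and -0.95 and 0.31 in KO. Monocytes gave 0.16 and 0.23 at dpi2 and 0.15 and -1.15 at dpi4, in place of -0.02, 0.07, -0.85 and 0.51, so that all but G2/M at dpi2 changed sign. The cycling cluster was then named differently between libraries, as described above.

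With at least 200 genes per cell, macrophages gave 0.080 and -0.071 at dpi4 and -0.88 and 0.078 over time in control, and dendritic cells -0.39 for S phase over time in KO. With mitochondrial shares up to 20%, macrophages gave -0.29 for S phase at dpi2, 0.055 and -0.11 at dpi4, and for G2/M over time 0.16 in control and 0.96 in KO. Monocytes gave 0.063 and -0.56 for S phase at dpi2 and dpi4, and dendritic cells 0.98 for G2/M at dpi4 and -0.89 for S phase over time in control. With no doublets removed, macrophages gave 0.061 and -0.075 at dpi4, monocytes -0.11 for G2/M at dpi2, and dendritic cells -0.52 for G2/M over time in control and -0.39 and 1.40 in KO. T or NK cells then gave 0.92 and 1.71 at dpi2 and -0.20 and -0.89 at dpi4. With cycle genes among the variable genes, macrophages gave -0.31 for S phase at dpi2, 0.057 and -0.064 at dpi4, -0.84 and 0.15 over time in control and -0.47 for S phase in KO. Dendritic cells gave -0.82 for G2/M at dpi2, -0.78 and -0.089 over time in control and -0.28 for S phase in KO.

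As means over thinned cells, macrophages gave -0.25 and 0.10 for S phase at dpi2 and dpi4, -0.74 and 0.12 over time in control and -0.39 and 0.88 in KO. Monocytes gave -0.13 and -0.37 for G2/M at dpi2 and dpi4, and T or NK cells -0.38 for S phase at dpi2. Dendritic cells gave -0.17 and -0.76 at dpi2, 0.24 and 0.38 at dpi4, -0.55 and -0.024 in control and -0.14 and 1.11 in KO. Without the member with the most UMIs, macrophages gave -0.50 and -1.0 at dpi2, -0.042 for S phase at dpi4, 0.29 for G2/M over time in control, and -0.35 and 1.14 in KO. Monocytes gave -0.25 and -0.12 at dpi2 and -1.41 for S phase at dpi4, and dendritic cells -1.26 and 0.99 for G2/M at dpi2 and dpi4, -1.17 for S phase in control and 1.77 for G2/M in KO. With the median ratio of all genes set to 1, macrophages gave -0.73 and 0.29 over time in control and -0.39 and 1.06 in KO.

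The next 3 settings were chosen after seeing the data. Without the cluster led by cycle genes, macrophages gave -0.28 and -0.84 at dpi2, 0.10 and -0.088 at dpi4, and for G2/M over time 0.88 in control and 1.63 in KO. Without the top cell of each library, G2/M gave -1.03 at dpi2 and 1.12 over time in KO in macrophages, -1.26 and 1.82 in dendritic cells and -1.67 at dpi4 in T or NK cells, and S phase at dpi4 in monocytes changed direction, to 0.10. Without the *Xcr1* cluster, dendritic cells gave -0.84 for G2/M at dpi2, 0.65 and 0.56 at dpi4, -1.30 for S phase in control, and -0.57 and 0.96 in KO. At 1.5-fold in place of 2-fold, 29 members passed as lower in KO macrophages at dpi2, 3 as higher and 18 as lower over time in control, and 18 and 6 in KO. The difference in S high macrophages was -1.71 points at dpi2 after thinning to 1000 UMIs, and at dpi4 it was 3.05 points after thinning to 4000 UMIs and 1.78 points at 2 or more UMIs. Differences in T or NK cells and in monocytes of dpi4 are limited by 36 to 132 and by 48 and 68 cells.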

Other observations

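A cluster of 262 cells stayed unnamed because its median depth of 3382.5 UMIs was 0.273 times that of its libraries and no marker of a class was among its first 10 genes. It was led by *Ctsk*, *Mcm7* and *Lars2*, with *Rfc4* and *Mcm5* also among its first 10 genes, although cycle genes had been kept out of the clustering. Its S phase sum was 1019, 825, 310 and 1180 CPM and its G2/M sum 279, 238, 162 and 838 CPM in control dpi2, KO dpi2, control dpi4 and KO dpi4, from 101, 62, 56 and 43 cells.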
